A study of Mus musculus with 30 samples.

Results

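Eph receptors are tyrosine kinases at the cell surface, and their ligands, the ephrins, are also held on the membrane, so that the pair signals where neighbouring cells touch. The 8 genes described here are the receptors Ephb2, Ephb3, Ephb4, Epha1 and Epha2 and the ligands Efnb1, Efnb2 and Efna1. They were taken by symbol from the deposited gene count table, 8 rows of 54146, which also holds the 14 other Eph and ephrin genes of the mouse. Gene expression was measured in small intestinal epithelium from female C57BL/6J mice of 8 to 10 weeks, all labelled WT (wild type). All animals, controls included, were kept for 1 week on AIN93G, a semi-purified diet without dietary agonists of the aryl hydrocarbon receptor (AHR), a ligand-activated transcription factor. Mice of the ICZ group were then given 10 µg of ICZ, an AHR ligand, in corn oil by gavage and the vehicle mice were gavaged with the vehicle alone. After 12 h the epithelium was released with EDTA in 5 successive fractions, F1 to F5, each sequenced as a 3' end library. The 3 vehicle mice gave 15 libraries and the 3 ICZ mice gave 14, because ICZ replicate 3 has no F1 library among the samples analysed here.

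In the crypts of the small intestine, Wnt signalling is known to keep EphB2 and EphB3 on stem and progenitor cells, while ephrin-B ligands are known from the differentiated cells above them. Repulsion between the receptor-bearing and the ligand-bearing cells helps to keep the compartments apart and Paneth cells at the crypt base. A-type receptors and ligands are less well placed along this axis, and Efna1 and Epha2 are known to respond to inflammatory and growth factor signals.

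Gene reads per library ran from 4359673 to 7819837 over the 29 libraries, the median being 6351137. All 8 genes had reads in all of them, from 5 to 112 reads per library for Ephb3, the most thinly counted, to 450 to 1069 for Efnb1. Levels are given as CPM, the read count relative to the scaled library size, and means with their SD over mice. One library stood apart: the F5 library of ICZ replicate 1 gave 53.7% of its gene reads to mitochondrial genes, against 20.4% to 37.5% in the others. The F5 library of ICZ replicate 3 had the highest summed level of 10 stromal genes, 135 CPM against at most 21.2 CPM elsewhere. Its sum of 10 endothelial genes was also the highest, at 14.98 CPM, against a median of 2.10 CPM. The next highest endothelial sum was 10.87 CPM, in the F5 library of ICZ replicate 1. All 10 stromal and all 10 endothelial genes had a read in at least 1 library, but Cdh5, which defines endothelium, was at 0 in 26 libraries and Cldn5 in 27.

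Since the labels number the fractions without placing them on the crypt-villus axis, marker lists were read first. These lists were chosen with earlier results of these data known. Of all 13164 genes tested along the vehicle fractions, 18.3% rose and 16.7% fell. Along F1 to F5 in vehicle mice, 11 of 13 crypt and Wnt target genes rose and 0 fell, among them Lgr5, which marks crypt stem cells, and Sox9. All 7 Paneth cell genes and 9 of 10 proliferation genes rose, and 8 of 10 enterocyte genes fell, among them the fatty acid binding gene Fabp1. In the same libraries all 16 immediate early and dissociation stress genes that were tested rose, and 4 of 9 leukocyte genes tested fell while 1 rose. The summed stress level lay between 860 and 1605 CPM in F1 and between 3619 and 5929 CPM in F5, and the leukocyte sum between 460 and 792 CPM in F1 and between 241 and 508 CPM in F5. No stromal gene and 1 endothelial gene, which did not pass, had enough reads to be tested in vehicle mice. The part of each of these cell types and of the stress genes in the levels described next was not tested. In such bulk samples fewer cells of a type and less RNA per cell cannot be told apart.

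**Figure D1:**
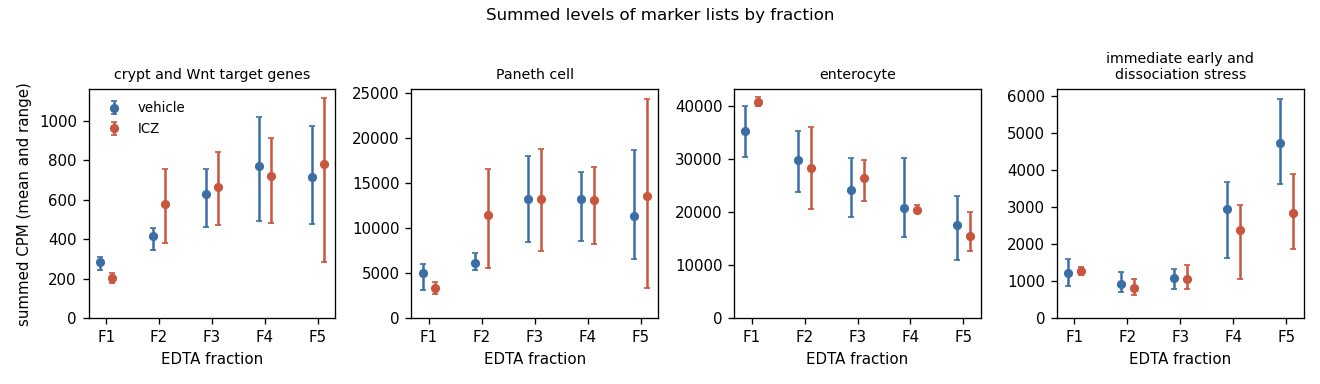
Summed CPM of 4 marker lists (y axes) in EDTA fractions F1 to F5 (x axes). Points are means over the mice of a group and bars run from the lowest to the highest mouse; crypt and Paneth genes are lowest in F1 in both groups, enterocyte genes fall towards F5, and stress genes reach 3619 to 5929 CPM in vehicle F5.

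The promoters of the 4 members that rose along the fractions, and that of Epha2, are shown because they carry, or lack, the core letters of factors that bear on this design. Each runs from 250 bases before to 50 bases after the RefSeq start site on GRCm38.p6, read 5′ to 3′ on the gene's strand. Capitals mark GCGTG, the core bound by AHR (CACGC where it lies on the other strand), and CTTTGA, a core bound by the Wnt-responsive TCF factors. Ephb2 is at chr4:136835963-136836262 (minus strand), Ephb3 at chr16:21204545-21204844 (plus), Ephb4 at chr5:137349859-137350158 (plus), Efna1 at chr3:89280902-89281201 (minus, the first of its listed start sites) and Epha2 at chr4:141300971-141301270 (plus).
Ephb2: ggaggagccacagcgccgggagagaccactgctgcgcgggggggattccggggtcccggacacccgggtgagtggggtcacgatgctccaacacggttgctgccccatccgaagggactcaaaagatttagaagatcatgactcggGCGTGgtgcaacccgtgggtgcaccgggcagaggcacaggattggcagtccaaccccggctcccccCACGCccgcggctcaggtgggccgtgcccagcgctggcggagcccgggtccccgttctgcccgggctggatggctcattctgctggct
Ephb3: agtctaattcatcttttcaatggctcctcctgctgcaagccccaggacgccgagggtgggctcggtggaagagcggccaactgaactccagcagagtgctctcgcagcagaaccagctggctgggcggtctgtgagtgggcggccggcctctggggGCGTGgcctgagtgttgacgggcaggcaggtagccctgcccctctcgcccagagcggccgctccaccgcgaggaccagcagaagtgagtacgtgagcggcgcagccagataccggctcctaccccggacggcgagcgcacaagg
Ephb4: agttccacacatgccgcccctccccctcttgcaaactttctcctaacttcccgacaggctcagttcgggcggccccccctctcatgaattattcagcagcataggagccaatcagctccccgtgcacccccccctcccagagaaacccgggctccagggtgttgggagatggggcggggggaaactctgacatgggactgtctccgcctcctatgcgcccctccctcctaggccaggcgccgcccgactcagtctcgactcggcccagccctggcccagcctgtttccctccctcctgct
Efna1: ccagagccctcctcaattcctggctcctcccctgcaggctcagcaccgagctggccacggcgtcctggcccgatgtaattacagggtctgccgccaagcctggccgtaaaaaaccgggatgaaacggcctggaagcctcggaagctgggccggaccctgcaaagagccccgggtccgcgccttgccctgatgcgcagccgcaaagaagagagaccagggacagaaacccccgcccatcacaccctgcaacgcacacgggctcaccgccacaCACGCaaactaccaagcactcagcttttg
Epha2: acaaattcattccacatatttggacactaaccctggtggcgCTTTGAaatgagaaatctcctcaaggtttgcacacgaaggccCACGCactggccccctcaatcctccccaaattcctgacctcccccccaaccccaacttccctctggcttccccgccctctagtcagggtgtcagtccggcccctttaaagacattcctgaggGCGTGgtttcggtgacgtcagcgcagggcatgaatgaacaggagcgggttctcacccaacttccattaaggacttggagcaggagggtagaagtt
GCGTG was found on either strand in the windows of 5 of the 8 members, Ephb2, Ephb3, Epha2, Efnb1 and Efna1, and in 32.4% of the 32851 windows of the same length. Ephb2 held it at -104 and, on the other strand, at -38, and Ephb3 held it at -94. Efna1 held it at 22 bases past the start site, and Epha2 at -45 and, on the other strand, at -167. CTTTGA was found in Epha2 at -209 and in no other member, against 16% of all windows, and CTTTGT in none of the 8, against 18.7%. TGANTCA, the letters bound by AP-1, was in none of the 8 and in 7.81% of all windows. No match overlapped another. Such matches describe letters only, and no binding was measured.

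The 3 EphB receptors rose together from F1 to F5 in vehicle mice. Ephb2 (ENSMUSG00000028664.14, chromosome 4, 136647539 to 136835988, minus strand) encodes the receptor used to grade crypt cells by position. Its 3 vehicle mice read 21.7, 15.7 and 19.3 CPM in F1, 23.7, 25.0 and 21.4 CPM in F2, and 23.4, 36.5 and 28.4 CPM in F3. In F4 they read 30.8, 41.5 and 30.0 CPM, and in F5 29.6, 27.8 and 45.1 CPM. All 3 values in F5 were above all 3 in F1, and each vehicle mouse had its lowest level in F1. The mean went from 18.9 ± 2.99 CPM in F1 to 34.2 ± 9.52 CPM in F5 (SD, n = 3), a log2 fold change of 0.84 ± 0.21 (SE, edgeR adjusted p = 0.00639). As a slope over all 5 fractions this was 0.22 ± 0.05 log2 units per fraction (edgeR adjusted p = 0.0012). Least-squares slopes of log2 CPM in vehicle replicates 1, 2 and 3 taken singly were 0.13, 0.23 and 0.29.

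Ephb3 (ENSMUSG00000005958.15, chromosome 16, 21204755 to 21223305, plus strand), whose product acts beside EphB2 and is known from Paneth cells, had few reads and the widest scatter. In F1 the vehicle mice read 4.14, 4.29 and 2.36 CPM, in F2 1.71, 5.51 and 5.35 CPM, and in F3 4.59, 14.1 and 8.19 CPM. In F4 they read 5.33, 12.7 and 8.47 CPM and in F5 5.23, 8.29 and 8.23 CPM. Replicate 1 was the lowest mouse from F2 onwards, and F5 did not overlap F1. The slope was 0.29 ± 0.09 (edgeR adjusted p = 0.0158) and F5 exceeded F1 by 0.96 ± 0.33 on the log2 scale (edgeR adjusted p = 0.0371). Without the mouse as a block these gave edgeR adjusted p = 0.0508 and 0.119.

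Ephb4 (ENSMUSG00000029710.15, chromosome 5, 137350109 to 137378669, plus strand), a receptor for ephrin-B2 that is best known from veins, had the largest fitted F5 to F1 difference of the 8. The vehicle mice read 6.08, 4.45 and 6.34 CPM in F1, 7.34, 10.2 and 9.51 CPM in F2 and 7.03, 9.06 and 12.0 CPM in F3. They read 10.3, 15.6 and 11.9 CPM in F4 and 8.84, 10.6 and 17.7 CPM in F5. Every vehicle mouse was lowest in F1. The slope was 0.26 ± 0.06 (edgeR adjusted p = 0.0019) and the fitted level in F5 was 2.14 times that in F1 (edgeR adjusted p = 0.00336). The gene span of Ephb4 overlaps that of Zan on the other strand, which had 502 reads over all libraries against 1984 for Ephb4. With no strand setting given, reads in the overlap may have been set aside as ambiguous or given to the wrong gene. Whether the exons of both genes overlap was not examined.

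**Figure D2:**
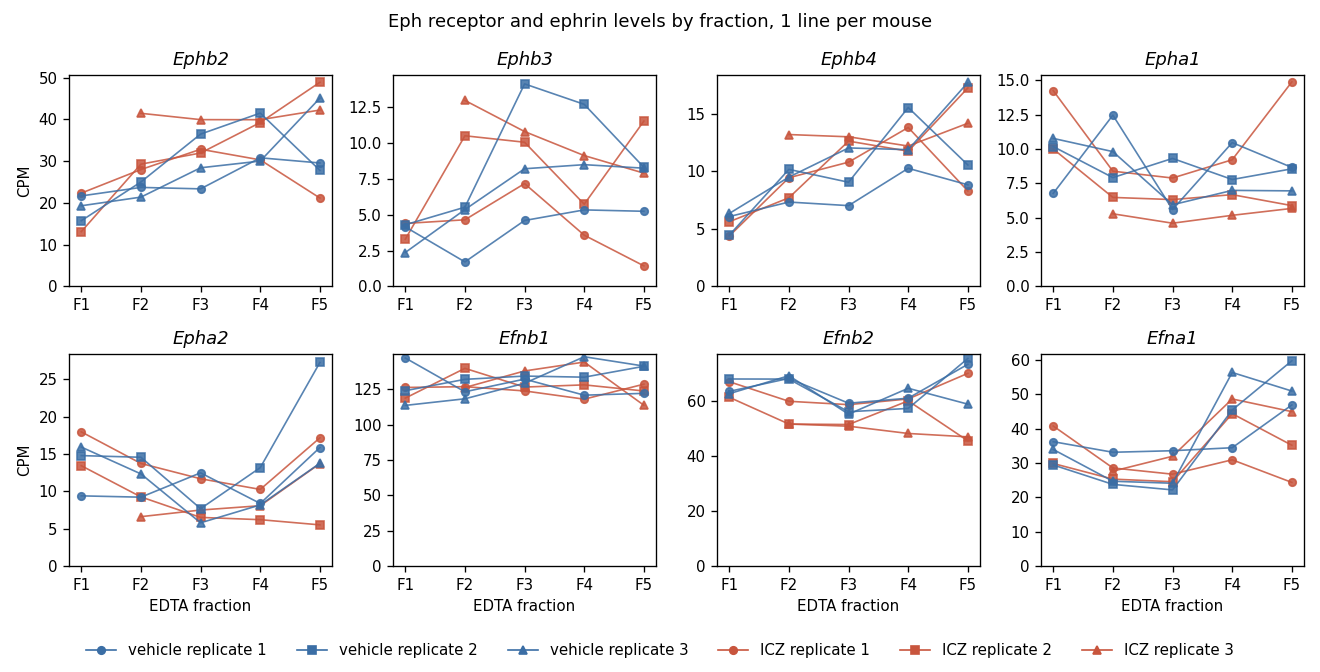
CPM (y axes, from 0) of the 8 genes in EDTA fractions F1 to F5 (x axes), with 1 line per mouse, blue for vehicle and red for ICZ. Ephb2, Ephb3 and Ephb4 lie lower in F1 than in F5 in all vehicle mice, Efnb1 stays between 114 and 148 CPM in every library, and Efna1 steps up in F4 in vehicle replicates 2 and 3.

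The 2 EphA receptors did not pass the test along the fractions. Epha1 (ENSMUSG00000029859.6, chromosome 6, 42358487 to 42373268, minus strand), an epithelial receptor, read 6.77, 10.2 and 10.8 CPM in the F1 libraries of the vehicle mice and 8.66, 8.55 and 6.95 CPM in F5. Its slope was -0.07 ± 0.06 (edgeR adjusted p = 0.403), with a 95% interval from -0.19 to 0.06. The gene span of Epha1 overlaps that of Zyx on the other strand, which had 7030 reads against 1501 for Epha1. The count of Epha1 is therefore uncertain in the same way as that of Ephb4. Epha2 (ENSMUSG00000006445.3, chromosome 4, 141301240 to 141329384, plus strand), a receptor of ephrin-A1, did not run in 1 direction. Vehicle means went from 13.4 ± 3.49 CPM in F1 to 8.64 ± 3.45 CPM in F3 and 19.0 ± 7.27 CPM in F5 (SD, n = 3). The 3 F5 values were 15.9, 27.3 and 13.8 CPM and the 3 F1 values 9.39, 14.8 and 15.9 CPM, which overlap. The slope of Epha2 was 0.08 ± 0.08 (edgeR adjusted p = 0.472) over all fractions and -0.18 ± 0.09 (edgeR adjusted p = 0.141) over F1 to F4.

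The 2 ephrin-B ligands did not pass, and their slopes lay close to 0. Efnb1 (ENSMUSG00000031217.8, X chromosome, 99136130 to 99148991, plus strand) encodes a ligand of EphB2 and EphB3. In F1 the vehicle mice read 147, 124 and 114 CPM, and in F5 122, 141 and 142 CPM, so that the groups overlap. The means of the 5 fractions lay between 125 and 135 CPM. The slope was 0.03 ± 0.03 (edgeR adjusted p = 0.463), and its 95% interval ran from -0.03 to 0.08. Efnb2 (ENSMUSG00000001300.16, chromosome 8, 8617434 to 8661242, minus strand), which also binds EphB4, read 63.5, 68.0 and 62.7 CPM in F1, 59.2, 56.1 and 55.2 CPM in F3 and 73.4, 75.5 and 58.9 CPM in F5. Its slope was 0.00 ± 0.03 (edgeR adjusted p = 0.94; 95% interval -0.06 to 0.06). Other annotated transcripts lie within Efnb2 on the same strand.

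Efna1 (ENSMUSG00000027954.9, chromosome 3, 89271733 to 89281142, minus strand), the ligand of EphA2 first found as a gene induced by tumour necrosis factor, was the 1 ligand of the 3 that rose. The vehicle mice read 36.2, 29.4 and 33.9 CPM in F1, 33.1, 23.8 and 24.7 CPM in F2 and 33.6, 22.1 and 24.1 CPM in F3. In F4 they read 34.4, 45.4 and 56.3 CPM and in F5 46.9, 59.7 and 50.9 CPM. In every mouse F2 and F3 were below F1. Replicates 2 and 3 were high in F4 and F5, and replicate 1 in F5 alone. The slope was 0.21 ± 0.06 (edgeR adjusted p = 0.0137) and the F5 to F1 difference 0.68 ± 0.19 on the log2 scale (edgeR adjusted p = 0.0137). Without F5 the slope was 0.15 ± 0.09 (edgeR adjusted p = 0.236), and F4 against F1 gave 0.46 ± 0.19 (edgeR adjusted p = 0.0846). The stress genes, which rose with it, had means of 1100 CPM in F3, 2960 CPM in F4 and 4732 CPM in F5, and their part in the Efna1 level was not tested.

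Counted over the family, 4 of the 8 members rose along the vehicle fractions (Ephb2, Ephb3, Ephb4 and Efna1) and 0 fell. Of the 13164 genes tested, 18.3% rose and 16.7% fell, 35% in either direction. The members' share that rose was above that of all genes, but the members were chosen with earlier results of these data known. The median slope was 0.15 log2 units per fraction for the members and 0.01 for all genes. F5 against F1 called the same 4 as higher, where 14.9% of all genes were higher and 28.1% differed in either direction, and these 4 were also the members whose F1 and F5 libraries did not overlap, against 37.2% of all genes. With library size alone in place of scaled library sizes the same number of members passed, but the split of all genes shifted, from 2415 higher of 4610 called to 2774 of 4266 for the slope and from 1959 of 3703 to 2147 of 3330 for F5 against F1. The calls rest on vehicle replicate 3: without it 0 of 8 members passed, with slopes of 0.18 for Ephb2, 0.24 for Ephb3, 0.22 for Ephb4 and 0.19 for Efna1 and edgeR adjusted p = 0.056, 0.148, 0.0623 and 0.0516, while all genes called went from 4610 to 1817. Without vehicle replicate 2 the slope of Efna1 was 0.15 (edgeR adjusted p = 0.0863), and F5 against F1 called 2 members, Ephb2 and Ephb4.

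No step between neighbouring fractions passed for any member by edgeR, so the order of levels within F1 to F5 is not resolved step by step. At an unadjusted p below 0.05 there was 1 member from F1 to F2 (Ephb4, 0.66), 2 from F2 to F3 (Ephb3, 1.06, and Efnb2, -0.27), 1 from F3 to F4 (Efna1, 0.79) and 1 from F4 to F5 (Epha2, 0.92), all as log2 fold changes. An unadjusted p below 0.05 was reached by 11%, 9.98%, 8.4% and 7.25% of all genes in these steps. After adjustment the steps called 0%, 0%, 0.41% and 0.0684% of all genes. The F3 to F4 step of Efna1 (edgeR adjusted p = 0.127) passed by DESeq2 (adjusted p = 0.0416) and without vehicle replicate 1 (1.12, edgeR adjusted p = 0.0014), and no member passed by limma voom.

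The same slopes were measured in the ICZ mice, which share no library with the vehicle mice. Ephb4 rose, 1 member of 8 where 14.7% of 12869 genes rose and 30.9% changed in either direction. Its 2 F1 libraries read 4.38 and 5.62 CPM and its 3 F5 libraries 8.30, 17.3 and 14.2 CPM. The slope was 0.24 ± 0.07 (edgeR adjusted p = 0.0107), where that of the vehicle mice was 0.26, and 0.30 ± 0.06 (edgeR adjusted p = 0.00135) without the library rich in mitochondrial reads. It did not pass without ICZ replicate 2 (0.15, edgeR adjusted p = 0.299) or over F2 to F5, which all 3 mice have (0.14, edgeR adjusted p = 0.15). In the same ICZ libraries 8 of 13 crypt and Wnt target genes and 0 of 7 Paneth cell genes rose. Of the stress genes tested 12 of 16 rose, and 9 of 10 enterocyte genes fell, where 16.2% of all genes fell. Only 4 of 10 stromal genes had enough reads to be tested, and these 4 rose. Summed over the 10 genes, ICZ libraries had 1.56 to 3.07 CPM in F1 and 15.4 to 135 CPM in F5. Genes with so few reads in F1 can become testable through F5 alone, so this rise is no separate result. Of the 10 endothelial genes 1 was tested and rose, with a slope of 1.55, and it need not be the gene tested in vehicle mice. The summed level of the 10 endothelial genes was 2.655 and 3.94 CPM in the ICZ F1 libraries. In F5 it was 10.87, 3.63 and 14.98 CPM in ICZ replicates 1, 2 and 3, so the same limit holds. The part of endothelial reads in the Ephb4 values was not tested.

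Ephb2 in the ICZ mice read 22.4 and 13.1 CPM in F1, 28.0, 29.3 and 41.5 CPM in F2, 32.9, 32.0 and 40.0 CPM in F3, 30.3, 39.3 and 39.9 CPM in F4 and 21.2, 48.9 and 42.3 CPM in F5. The low F5 value is that of replicate 1, the library rich in mitochondrial reads. The slope was 0.17 ± 0.06 (edgeR adjusted p = 0.0582) with that library and 0.23 ± 0.06 (edgeR adjusted p = 0.00452) without it. It was 0.013 (edgeR adjusted p = 0.893) without ICZ replicate 2 and 0.071 (edgeR adjusted p = 0.345) over F2 to F5. Ephb3 was 1.43 CPM in the same library, its lowest value anywhere, and 11.5 and 7.88 CPM in the other F5 libraries of ICZ mice. Its slope was -0.03 ± 0.11 (edgeR adjusted p = 0.882), and 0.04 ± 0.10 (edgeR adjusted p = 0.763) without that library. Crypt and Wnt target genes in that library were also low, with a summed level of 286 CPM where the highest ICZ F5 library had 1113 CPM.

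Efna1 in the ICZ mice had its highest mean in F4, at 30.9, 44.3 and 48.6 CPM, and read 24.3, 35.1 and 44.9 CPM in F5. The slope was 0.06 ± 0.06 (edgeR adjusted p = 0.493), and 0.10 (edgeR adjusted p = 0.23) without the library rich in mitochondrial reads. It was 0.17 over F2 to F5 (edgeR adjusted p = 0.0453) and 0.17 without ICZ replicate 1 (edgeR adjusted p = 0.0449), but 0.010 without replicate 2 (edgeR adjusted p = 0.943) and 0.0051 without replicate 3 (edgeR adjusted p = 0.964). Epha1, Epha2, Efnb1 and Efnb2 had slopes of -0.05, -0.08, -0.01 and -0.03 in the ICZ mice and did not pass, and without the library rich in mitochondrial reads their slopes were -0.13, -0.14, -0.02 and -0.05 and did not pass either. Epha2 fell over F1 to F4 in these mice, by 0.26 per fraction (edgeR adjusted p = 0.0178), but its slope was 0.081 over F2 to F5 (edgeR adjusted p = 0.54) and 0.077 without ICZ replicate 2 (edgeR adjusted p = 0.616). The Ephb4 slope was positive in all 6 mice, as for 17.1% of all genes, that of Ephb2 and Efna1 in 5 and that of Ephb3 in 4. In the vehicle mice alone it was positive in all 3 for these 4 genes, as for 29.3% of all genes. ICZ replicate 3, which has no F1 library, counts as positive with slopes of only 0.021 for Ephb4 and 0.0080 for Ephb2.

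**Figure D3:**
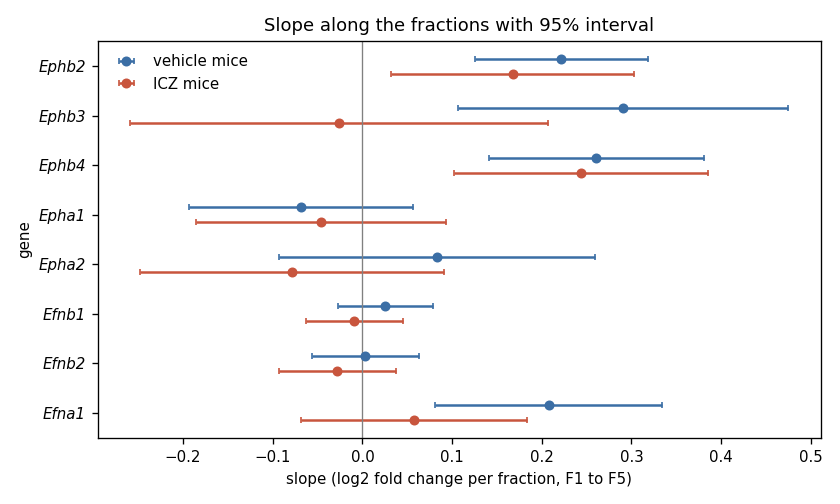
Slope along the fractions in log2 fold change per fraction (x axis) for each gene (y axis), with 95% intervals, in vehicle (blue) and ICZ (red) mice. The vehicle intervals of Ephb2, Ephb3, Ephb4 and Efna1 lie above 0, and the intervals of Efnb1 and Efnb2 are narrow and hold 0 in both groups.

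Receptor and ligand can be set against each other as reads of the 3 EphB receptors per 100 reads of the 2 ephrin-B ligands, a measure chosen after the levels had been seen and given without a test. The size of this ratio between different genes is not read, only its course. In vehicle mice it was 14.6 ± 1.64 in F1, 18.9 ± 1.66 in F2, 25.3 ± 6.57 in F3, 28.6 ± 6.94 in F4 and 26.4 ± 7.83 in F5 (SD, n = 3). In ICZ mice it was 12.2 and 16.1 in the 2 F1 libraries, and the means were 28.4 ± 8.35 in F2, 30.7 ± 2.96 in F3, 29.5 ± 2.62 in F4 and 33.8 ± 16.1 in F5 (SD, n = 3). Vehicle F2 ran from 17.1 to 20.3 and ICZ F2 from 22.5 to 38.0, which do not overlap, while F3, F4 and F5 overlap between the groups. As single genes, 16.8% of all genes tested did not overlap in F2. Ephb2 and Efnb2, which enter the ratio, were among them, so it is no separate result. The lowest ICZ value in F5, 15.5, is that of the library rich in mitochondrial reads.

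**Figure D4:**
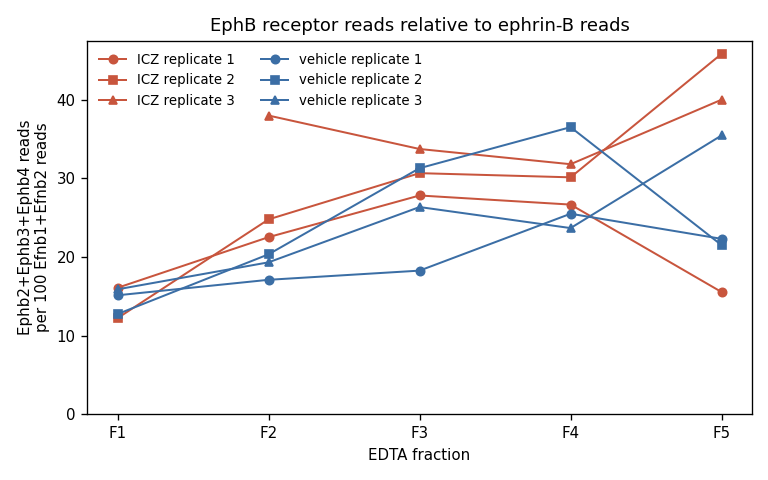
Summed reads of Ephb2, Ephb3 and Ephb4 per 100 summed reads of Efnb1 and Efnb2 (y axis, from 0) in EDTA fractions F1 to F5 (x axis), with 1 line per mouse. The ratio is lowest in F1 for vehicle mice, at 12.7 to 15.9. In F2 the 3 ICZ mice lie above the 3 vehicle mice, which was not tested.

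ICZ was compared with vehicle on the reads of F2 to F5 added per mouse, the fractions that all 6 mice have. No member passed by edgeR, DESeq2 or limma voom, and 1 of 8 had an unadjusted p below 0.05. Of all 15497 genes 0% passed by edgeR, where 886 (5.72%) had an unadjusted p below 0.05, DESeq2 called 13 and limma voom 1. Efnb2 came closest: the vehicle mice read 66.6, 64.9 and 63.2 CPM and the ICZ mice 62.1, 52.7 and 51.1 CPM. All 3 ICZ values were below all 3 vehicle values, which held in either direction for 11.5% of all genes, and the log2 fold change was -0.23 ± 0.09 (edgeR adjusted p = 0.846). The groups of the other 7 members overlapped. Efna1 differed by -0.22 ± 0.11, Epha1 by -0.25 ± 0.22 and Epha2 by -0.40 ± 0.24 on the log2 scale. Ephb2 differed by 0.25 ± 0.14, Ephb3 by 0.16 ± 0.38 and Ephb4 by 0.18 ± 0.17. Leaving out 1 mouse moved most of these values by over 1.5 times. Ephb4 was 0.017 without vehicle replicate 1 and 0.32 without vehicle replicate 3, and 0.11 without ICZ replicate 3. Ephb2 was 0.38 without ICZ replicate 1, 0.16 without vehicle replicate 1 and 0.14 without ICZ replicate 3. Ephb3 ran from -0.12 without vehicle replicate 1 to 0.47 without vehicle replicate 2. Epha1 ran from -0.54 without ICZ replicate 1 to -0.09 without ICZ replicate 3, Epha2 from -0.67 without ICZ replicate 1 to -0.22 without vehicle replicate 2 or ICZ replicate 2, and Efna1 from -0.33 without ICZ replicate 3 to -0.13 without ICZ replicate 1. With F2 to F4 summed, a choice made after seeing the data that leaves out all F5 libraries, Epha2 differed by -0.22, Epha1 by -0.34 and Efna1 by -0.08. The 95% interval was narrowest for Efnb1, from -0.22 to 0.13 on the log2 scale, and widest for Ephb3, from -0.73 to 1.05. With the replicate number as a block 231 of all genes and 0 members passed.

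Within single fractions, compared without a block, no member passed by edgeR, DESeq2 or limma voom. The members with an unadjusted p below 0.05 were 4 in F2 and 1 in F5. Such a p was reached by 4.39% of all genes in F1, 12% in F2, 9.15% in F3, 2.89% in F4 and 2.79% in F5. The share of all genes that passed was 0.0324% in F1, 0.0165% in F2, 0.00815% in F3, 0% in F4 and 0% in F5. In F2 Ephb3 read 1.71, 5.51 and 5.35 CPM in vehicle and 4.64, 10.5 and 12.9 CPM in ICZ mice, which overlap through ICZ replicate 1. The log2 fold change was 1.13 ± 0.45 (edgeR adjusted p = 0.367). With the replicate number as a block it was 1.15 ± 0.27 (edgeR adjusted p = 0.0306), and without ICZ replicate 1 it was 1.44 (edgeR adjusted p = 0.0469).

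Also in F2, Ephb2 read 23.7, 25.0 and 21.4 CPM in vehicle and 28.0, 29.3 and 41.5 CPM in ICZ mice (log2 fold change 0.47 ± 0.18, edgeR adjusted p = 0.334). Efnb2 read 68.3, 68.0 and 69.2 CPM in vehicle and 59.9, 51.6 and 51.6 CPM in ICZ mice (-0.36 ± 0.12, edgeR adjusted p = 0.288). Neither pair of groups overlaps, as for 16.8% of all genes in F2. In F1, F3 and F4 the groups of all 8 members overlap, where 19.8%, 15% and 8.83% of all genes do not. Epha1 differed by -0.62 ± 0.26 with overlap. Other lists differed in the same libraries: the Paneth sum was 5353 to 7215 CPM in vehicle F2 and 5609 to 16590 CPM in ICZ F2, the crypt and Wnt target sum 344 to 458 against 382 to 757 CPM, and the leukocyte sum 454 to 837 against 158 to 323 CPM. Their part in the F2 differences was not tested.

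In F5 Efna1 read 46.9, 59.7 and 50.9 CPM in vehicle and 24.3, 35.1 and 44.9 CPM in ICZ mice. All ICZ values were lower, as groups did not overlap for 8.08% of all genes in F5. The log2 fold change was -0.57 ± 0.23 (edgeR adjusted p = 1), and -0.39 (edgeR adjusted p = 0.808) without the F5 library of ICZ replicate 1. The stress sum was 3619 to 5929 CPM in vehicle F5 and 1876 to 3889 CPM in ICZ F5, and its part in the Efna1 values was not tested. Whether the ICZ effect differs between fractions was tested over all 29 libraries, and no member passed by edgeR, DESeq2 or limma voom, where 0.00711% of 14067 genes passed by edgeR. The smallest unadjusted p was 0.0402, for Ephb3 (edgeR adjusted p = 0.927).

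**Figure D5:**
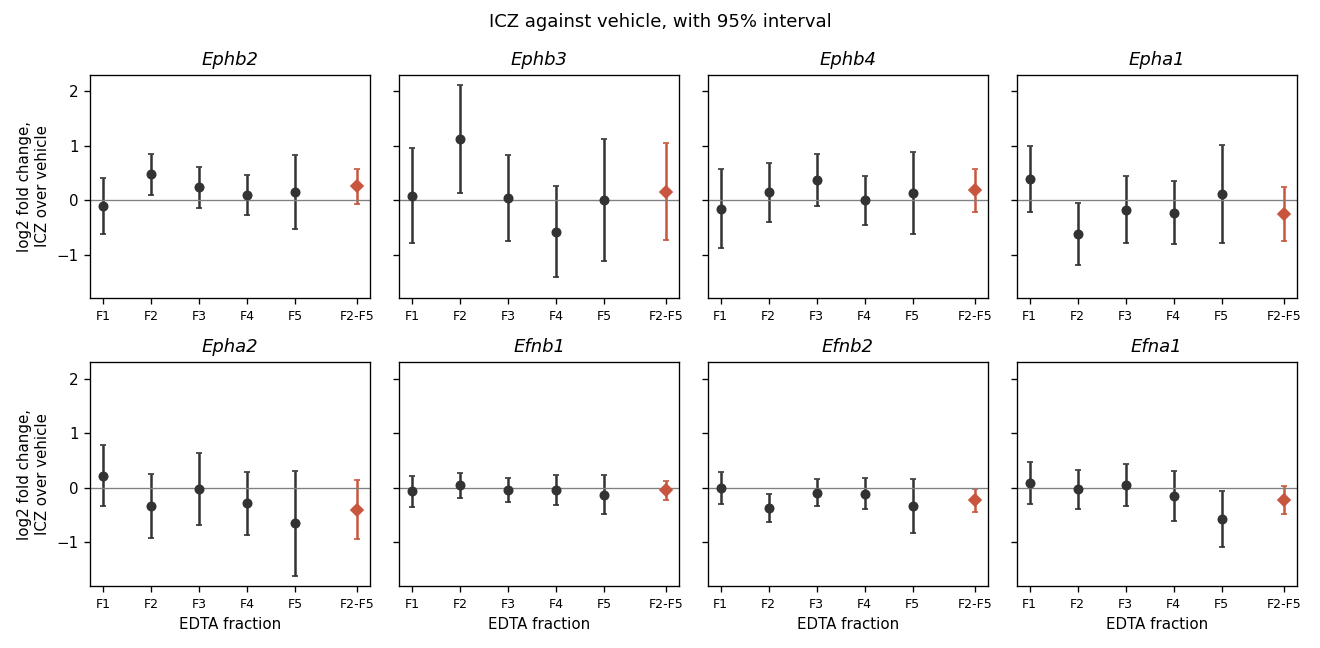
Log2 fold change of ICZ over vehicle (y axes) for each gene in EDTA fractions F1 to F5 (black) and in F2 to F5 summed per mouse (red diamonds), with 95% intervals that are not adjusted for the number of genes. In F2 the intervals of Ephb2 and Ephb3 lie above 0 and those of Epha1 and Efnb2 below 0. In these unpaired tests no member passed after adjustment over all genes.

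Of the 14 other Eph and ephrin genes, 3 reached a mean of 1 CPM. Efna4, which lies beside Efna1 and Efna3 on chromosome 3 and encodes another A-type ligand, rose along the fractions in both groups, with slopes of 0.29 ± 0.07 in vehicle (edgeR adjusted p = 0.0028) and 0.30 ± 0.09 in ICZ mice (edgeR adjusted p = 0.0141). Its mean went from 5.14 ± 0.67 CPM in vehicle F1 to 12.8 ± 2.32 CPM in F3 and 11.3 ± 2.17 CPM in F5 (SD, n = 3). Epha4, a receptor that binds ligands of both classes, had slopes of 0.26 ± 0.11 in vehicle (edgeR adjusted p = 0.0699) and 0.37 ± 0.10 in ICZ mice (edgeR adjusted p = 0.0121), at 2 to 24 reads per library. Efna3 did not pass in either group (0.12 and 0.20). The other 11 genes lay below 1 CPM, and Epha8 had 0 reads of 186443428, which allows up to 0.0161 CPM over all libraries, for counting error only.

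Proteins that carry Eph and ephrin signals inside the cell, among them adaptors, Src-family kinases and a shedding protease, were counted from a list of 33 genes, 32 of them tested. Along the vehicle fractions 2 rose and 10 fell, with a median slope of -0.04, where 18.3% of all genes rose and 16.7% fell. Nck2, an SH2 adaptor, rose by 0.16 ± 0.04 (edgeR adjusted p = 0.00344), and Tiam1, an exchange factor for Rac, by 0.25 ± 0.09 (edgeR adjusted p = 0.0376). Among the 10 that fell, Vav2, Git1 and the kinase Src had slopes of -0.18, -0.15 and -0.21. In the ICZ mice 0 of the 32 rose and 9 fell, where 14.7% of all genes rose and 16.2% fell, and 0 passed between ICZ and vehicle.

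Across the 29 libraries, which come from 6 mice and share the fraction order, Ephb2 ran most closely with Ephb4 (Pearson r of log2 CPM 0.859) and with Ephb3 (0.717), and against Efnb2 (-0.636). Epha1 ran with Efnb2 (0.718), and Efnb1 with no other member above 0.396. Among 8621 genes of at least 5 CPM, the nearest to Ephb3 was Lgr5 (0.887), the crypt stem cell receptor, followed by Tsen34 and Prelp. The nearest to Ephb2 were Rpl4 (0.952), Hmgn1 and Mrto4, and to Ephb4 G3bp1 (0.942), Nup85 and Rasa3. Efna1 was nearest to Dnajb9 (0.896), Klf6 and Brd2, of which Klf6 is on the stress list, and Epha2 to Socs3 (0.849), Trim15 and Rab11fip1. Epha1 was nearest to Ddhd1 (0.852), Efnb2 to Phactr4 (0.83) and Efnb1 to Fam173b, at only 0.64. These values describe a shared course over the libraries and carry no test.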

How the data were processed

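The data are 3' end RNA sequencing libraries (QuantSeq) of mouse small intestinal epithelium. The authors deposited 1 table of whole-number read counts per gene, not normalized. Per the submitters' processing notes, reads were aligned with BWA 0.7.17-r1188 to GRCm38.p6 (mm10) and counted with HTSeq 0.11.2, with FastQC 0.11.2 and SAMtools 1.10 also named. For the annotation release, the strand setting and molecular identifiers the answer is "not given in the sources used here". Reads are therefore not known to be independent molecules. Reads over more than 1 gene were set aside as ambiguous, so counts of overlapping genes can miss some.

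Summary lines that name no gene were left out of library sizes; gene reads were 51.6% to 61.6% of the counted reads. Samples were grouped by their labels, and 1 sample labelled as undetermined entered no comparison. Replicate libraries differed beyond sampling noise in all 28 pairs within groups (chi-square per degree of freedom 4.74 to 96.1). The labels do not say whether mice were handled in batches. The mice are the replicates where ICZ is compared with vehicle, in summed reads or within a fraction. In slopes and fraction contrasts the libraries of a mouse supply the spread once its level is taken out. Those p-values therefore do not measure how slopes vary between mice.

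Tests used edgeR 4.0.16 on the counts (filterByExpr, TMM, robust quasi-likelihood F test, Benjamini-Hochberg over all genes, threshold 0.05), with SE computed from the log2 fold change and its F statistic and intervals of 95%. Slopes use fraction numbers 1 to 5, and fraction contrasts and slopes have the mouse as a block. CPM use TMM library sizes over the 29 libraries, and log2 CPM a prior count of 2. DESeq2 1.42.0, limma 3.58.1, other scalings, no filter and left-out mice were alternatives. ICZ was compared without a block, with the replicate number as a block as the alternative. Deviations of same-numbered vehicle and ICZ mice correlated at 0.381, 0.247 and 0.472, but no label says what the numbers share. The numbers may pair the mice, but the main comparisons of ICZ with vehicle left them unpaired, and their calls hold for that choice.

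The members and all gene lists were chosen with earlier results of these data known. All 8 members are named; other family genes at a mean of at least 1 CPM; from other lists, up to 4 per direction of smallest p in the vehicle slope; and for each member the 3 genes of highest Pearson r, leaving out predicted genes. One gene that this rule names among the signalling partners is not reported here. All 8 members passed the filter in every comparison. Gene positions are from GENCODE M21 and promoters from RefSeq, both GRCm38, and all 8 members matched. Scripts were tested on simulated data.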

Additional observations from a re-analysis of the deposited data

How the results depend on the processing

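For the vehicle slope, leaving out mice gave 0 to 4 members and 1817 to 4396 genes called, against 4 and 4610. For F5 against F1 it gave 0 to 4 members and 886 to 4215 genes, against 4 and 3703. For neighbouring fractions it gave 0 to 1 members and 13 to 646 genes, against 0 and 63, and no filter gave 3 members (Ephb3, Efna1 and Epha2) and 998 genes, DESeq2 1 and 144, and no replicate block 1 gene. For the ICZ slope, leaving out mice gave 0 to 3 members and 1431 to 3449 genes, against 1 and 3973. Library size alone gave 0 members and 2269 genes there, DESeq2 size factors, DESeq2, limma voom and leaving out the F5 library of ICZ replicate 1 (chosen after seeing the data) 2 members each, the last with 4785 genes, and F1 to F4 gave 3. For ICZ against vehicle in F2 to F5, genes called went from 0 to 2 with library size alone, 36 with no filter, 13 with DESeq2, 1 with limma voom, 231 with the replicate block and 0 to 3 without single mice. Within fractions, 0 members and 7 genes became 1 and 692 with no filter, 1 and 329 with the replicate block (the pairing changed no other call of a member), 164 genes with DESeq2, and 0 to 1 members and 3 to 534 genes without single mice. For the ICZ effect by fraction, no filter gave 1 member (Ephb3, adjusted p = 0.0295) and 331 genes, against 0 and 1. Other settings there gave 4 genes with DESeq2, 2 with 1 slope term, 2 without the F5 library of ICZ replicate 1, 0 with library size alone, limma voom or no replicate block, and 0 to 5 without single mice. The cause of these shifts was not tested.

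No member called along the fractions changed sign; the following uncalled ones did. The vehicle slope without single mice ran from -0.0090 to 0.059 for Efnb1 and from -0.017 to 0.018 for Efnb2 (also -0.0087 without vehicle replicate 2). It was -0.0025 for Efnb2 with DESeq2 or its size factors and -0.0041 with no filter, and over F1 to F4 -0.053 for Efnb2 and -0.18 for Epha2. F5 against F1 without single mice ran from -0.46 to 0.040 for Epha1 and from -0.033 to 0.23 for Efnb1, and F4 against F1 gave -0.45 for Epha2 and -0.083 for Efnb2. The ICZ slope without single mice or the F5 library of ICZ replicate 1 ran from -0.24 to 0.052 for Ephb3, -0.13 to 0.031 for Epha1, -0.18 to 0.077 for Epha2, -0.018 to 0.0013 for Efnb1 and -0.061 to 0.00031 for Efnb2. For Ephb3 it was 0.017 with limma voom, 0.028 with no replicate block, 0.0051 over F1 to F4 and 0.044 without that F5 library. Over F2 to F5 it was 0.11 for Epha1, 0.081 for Epha2 and 0.0077 for Efnb2, and over F1 to F4 0.0094 for Efnb1. The summed ICZ difference of Ephb3 ran from -0.12 without vehicle replicate 1 to 0.47 without vehicle replicate 2. Efna1 kept its direction in the vehicle slope but did not pass with no filter (0.20, edgeR adjusted p = 0.0714), and Ephb4 in the ICZ slope did not pass with library size alone (0.25, edgeR adjusted p = 0.0656). Library size alone moved the median of all genes to 0.125 in F5 against F1 of vehicle mice, and to -0.156 in ICZ against vehicle in F5. Of all values of single members under alternatives, 512 kept their direction and their side of the threshold, 19 no longer passed, 18 newly passed and 29 changed sign. At 5 to 112 reads per library, depth limits Ephb3 most.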

Other observations

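The sample labelled as undetermined, of which 31.9% of all counted reads were unaligned, held 7484796 gene reads. By library size alone it had 29.8 CPM of Ephb2, 7.21 CPM of Ephb3, 10.0 CPM of Ephb4, 9.09 CPM of Epha1 and 13.4 CPM of Epha2. The ligands stood at 120.4 CPM for Efnb1, 66.8 CPM for Efnb2 and 30.1 CPM for Efna1. Each of the 8 values lies within the range of the assigned libraries on the same scale, which ran from 11.8 to 50.6 CPM for Ephb2 and from 16.7 to 62.8 CPM for Efna1.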
